A study of Mus musculus with 12 samples.

Results

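*Trim63* encodes MuRF1, the ubiquitin ligase best known as a marker of muscle atrophy. It was followed here with 9 further regulators of muscle atrophy in the RNA of mouse skin, 10 of the 52636 genes in the count table. The genes were found by matching their symbols to Ensembl identifiers, a rule that uses no measured value, although *Trim63* was known from earlier results of these data. They are the MuRF ligases *Trim63*, *Trim55* and *Trim54*, the F-box proteins *Fbxo32* and *Fbxo30*, the transcription factors *Foxo1*, *Foxo3*, *Foxo4* and *Klf15*, and the secreted factor *Mstn*. All 10 passed the filter on low counts and were tested.

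The samples were full-thickness pieces of shaved dorsal skin from C57BL/6 mice (C57BL/6J in the paper) aged 3 months, with 3 mice in each of 4 groups, collected on day 14. WT mice are wild type for *Cdc42* and KO mice are Cdc42-/-. The deletion in KO mice was made in floxed *Cdc42* by Cre under the K5 promoter, which is active in keratinocytes, so that the other cells of the skin, its muscle included, were not targeted. Both treated groups, WT+ZnO NPs and KO+ZnO NPs, had zinc oxide nanoparticles (ZnO NPs) applied to the skin on each of the 14 days, suspended in saline that held HPMC, a thickener, and both control groups had this fluid alone. The WT mice also carried floxed *Cdc42*, on 1 or both alleles, but no Cre.

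Levels are in CPM, which give the share of a library's counts that fell on a gene, scaled by edgeR's TMM factors. Libraries held 21076320 to 28867802 counts. *Cdc42* was 606 to 628 CPM in WT and 415 to 464 CPM in KO libraries, but 311 to 350.1 CPM where the label reads WT+ZnO NPs and 314 to 453 CPM where it reads KO+ZnO NPs. *Cdc42* thus lay below the KO level in libraries labelled wild type and did not separate the treated genotypes. Both treated groups are called by their labels throughout, and each direction that involves them rests on those labels. The summed level of 4 Y-linked genes was 192 to 242 CPM in all 3 WT+ZnO NPs libraries, in KO replicate 1 and in KO+ZnO NPs replicate 1, and at most 0.0504 CPM in the other libraries. The same 5 libraries held at most 0.475 CPM of *Xist*, the RNA of the inactive X chromosome, against 460 CPM or more in the other 7, whereas the paper describes the KO mice as female. All 30 skeletal muscle markers searched for were in the table, and all 10 keratinocyte markers were found in every library.

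In striated muscle, loss of insulin-like growth factor and AKT signalling, glucocorticoids and the myostatin and activin ligands all converge on the FoxO factors, which enter the nucleus and switch on *Trim63* and *Fbxo32*. The ligases then mark sarcomere proteins for breakdown by the proteasome. KLF15 is induced by the glucocorticoid receptor and acts on the same ligase genes. Dorsal mouse skin holds a sheet of striated muscle, the panniculus carnosus, beneath the fat.

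Each gene was placed on GRCm38 with release 21 of GENCODE. *Trim63* (ENSMUSG00000028834) spans chr4:134315120-134329629 on the plus strand, overlaps no other gene and shares 0% of its 50-base stretches with other transcripts. Of the other regulators, the exons of *Trim54* overlap *Gm15469* (18.4% of its stretches are shared), those of *Foxo1* overlap *Gm20402* (6.80%) and those of *Fbxo32* overlap *Gm15943* (2.57%), all on the opposite strand. Since the use of strand in the counting is not given, reads from the overlapping parts of these 3 genes and of their partners cannot be told apart.

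The region upstream of *Trim63* is shown because FoxO factors and the glucocorticoid receptor are known to act there together. RefSeq promoters (GRCm38.p6) were held for 7 of the 10 genes, and the 250 bases before each start were searched on both strands. The letters searched were GTAAACA for FoxO factors, AGAACA for the glucocorticoid receptor, CACCC for KLF factors and the E-box CANNTG. Capitals mark the matches in these stretches, which lie at chr4:134314900-134314952 and chr5:31116370-31116415, both on the plus strand.
Trim63: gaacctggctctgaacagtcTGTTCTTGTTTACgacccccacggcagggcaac
Trim54: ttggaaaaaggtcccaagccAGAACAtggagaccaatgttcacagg
In *Trim63* the reverse complement of AGAACA, 200 to 195 bases before the start, is followed without a gap by the reverse complement of GTAAACA, 194 to 188 bases before it. *Trim63* was the 1 promoter of the 7 with GTAAACA, which 3.17% of 32851 promoters hold. AGAACA was also found in *Trim54* and is held by 16.1% of promoters. CACCC was found in *Trim54* and *Klf15*, against 52.0% of promoters, and CANNTG in 5 of the 7, against 66.2%. These are matches of letters and not measured binding.

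*Trim63* and *Klf15* were highest in the KO+ZnO NPs group, where each of the 3 libraries lay above the other 9. Its level was 41.0, 37.8 and 23.1 CPM in the WT libraries and 30.3, 13.9 and 12.7 CPM in the KO libraries. It was 43.4, 31.4 and 27.3 CPM in the WT+ZnO NPs libraries and 49.6, 159 and 62.4 CPM in the KO+ZnO NPs libraries. These last 3 values were above those of every other library, while the other 3 groups overlapped one another, and the spread in KO+ZnO NPs (90.4 ± 59.9 CPM, mean ± SD, n = 3) was set mainly by replicate 2.

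Per kilobase of exon, *Trim63* was among the more abundant regulators. Over the 12 libraries the mean level per length was 18.05 CPM per kb for *Foxo4*, 15.6 for *Trim63*, 14.4 for *Trim54*, 10.8 for *Foxo3* and 9.49 for *Fbxo32*. It was 8.39 CPM per kb for *Klf15*, 7.14 for *Mstn*, 6.24 for *Foxo1*, 5.61 for *Fbxo30* and 1.95 for *Trim55*. The range of each gene over the libraries overlapped that of its neighbour in this order, so the order is no more than that of the means. The genes differed widely in how much they varied: the highest library was 33.5 times the lowest for *Mstn*, 21.03 times for *Trim55*, 12.6 times for *Trim63* and 9.46 times for *Trim54*, but 1.49 times for *Foxo4* and 1.89 times for *Foxo1*.

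**Figure D1:**
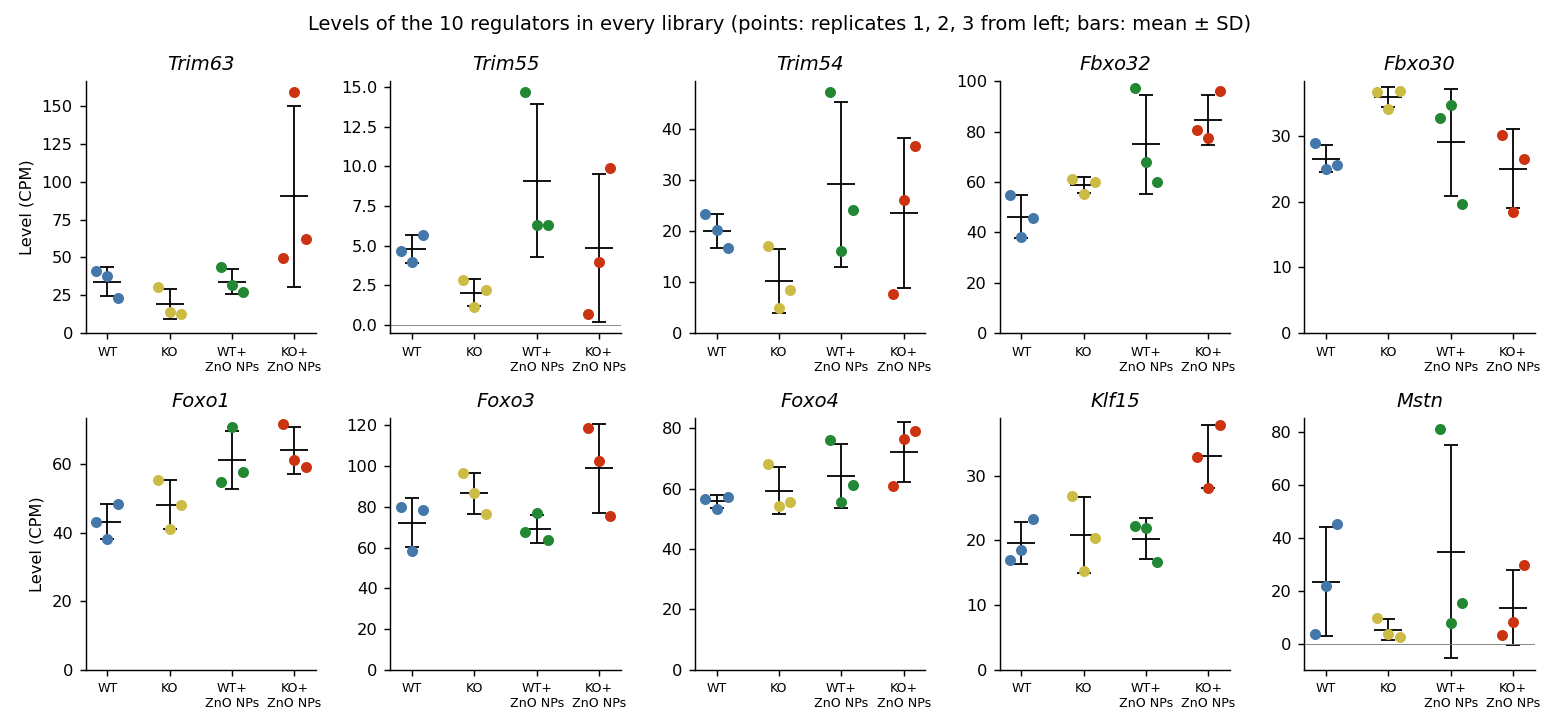
Levels of the 10 regulators in CPM (vertical axes, 1 scale per gene) in the 4 groups (horizontal axes), where each point is a library and the bars give the mean ± SD of 3 mice. The 3 KO+ZnO NPs points of *Trim63*, at 49.6, 159 and 62.4 CPM, stand above all others, and *Trim55*, *Trim54* and *Mstn* scatter within their groups.

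The comparison of KO with WT asks what the loss of *Cdc42* did to these genes without nanoparticles. By the quasi-likelihood test of edgeR, adjusted over 18822 genes after Benjamini and Hochberg, 0 of the 10 regulators differed (adjusted p below 0.05), against 8.18% of all genes (4.61% higher and 3.58% lower). None had an unadjusted p below 0.05 either, against 26.1% of all genes, and their median log2 fold change was 0.088, against 0.01 over all genes. Groups without overlap were found for 3 of the 10 genes, against 38.5% of all genes.

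The log2 fold change of *Trim63* was -0.841 ± 0.465 (SE, adjusted p = 0.285 by edgeR) and that of *Mstn* -2.156 ± 1.12 (adjusted p = 0.254). The libraries of both genes overlapped. *Trim55*, which encodes MuRF2, was 4.66, 3.93 and 5.69 CPM in WT and 2.81, 1.08 and 2.16 CPM in KO libraries, all lower. Its log2 fold change was -1.24 ± 0.73 (SE, adjusted p = 0.317 by edgeR). *Fbxo30*, an F-box protein induced when BMP signalling in muscle fails, was 28.9, 25.1 and 25.7 CPM in WT and 36.8, 34.2 and 36.8 CPM in KO libraries, all higher (log2 fold change 0.44 ± 0.22, adjusted p = 0.24). *Fbxo32*, which encodes atrogin-1, was also higher in all KO libraries, by 0.35 ± 0.19 (adjusted p = 0.277). DESeq2 fitted on these 2 groups alone called *Trim55* (adjusted p = 0.0112) and *Fbxo30* (adjusted p = 0.00563), and edgeR on the 2 groups alone called *Fbxo30* (adjusted p = 0.0293). The skeletal muscle markers had a median log2 fold change of -0.978 here. With their level as a covariate of the edgeR fit, *Trim55* was at 0.064 (adjusted p = 0.966) and *Fbxo30* at 0.348 (adjusted p = 0.527).

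In WT skin, ZnO NPs went with a rise of 2 regulators, *Fbxo32* and *Foxo1*. These 2 of 10 compare with 43.0% of all genes called in this comparison (20.8% higher and 22.1% lower). The share is below the background. The median log2 fold change of the 10 genes was 0.352, against 0.056 over all genes, and 3 of the 10 had groups without overlap, against 59.4% of all genes.

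*Fbxo32* was 55.0, 38.2 and 45.7 CPM in WT and 97.2, 67.9 and 59.9 CPM in WT+ZnO NPs libraries, with no overlap. The rise was 0.70 ± 0.19 on the log2 scale, or 1.62-fold (adjusted p = 0.0131). *Foxo1*, a FoxO factor, was 43.2, 38.0 and 48.4 CPM in WT and 54.7, 70.8 and 57.8 CPM in WT+ZnO NPs libraries, again with no overlap. It rose by 0.50 ± 0.15, or 1.41-fold (adjusted p = 0.0224). Both calls depended on single libraries: without WT replicate 2 the adjusted p was 0.0588 for *Fbxo32* and 0.0949 for *Foxo1*, without WT replicate 1 it was 0.0625 for *Foxo1*, and without WT+ZnO NPs replicate 2 it was 0.0878 for *Foxo1*. With the muscle level as a covariate *Fbxo32* was at 0.548 (adjusted p = 0.0533), and without the filter on low counts *Foxo1* was at 0.464 (adjusted p = 0.0639). Of 10 melanocyte markers, 9 rose and 1 fell in the same comparison with a median log2 fold change of 5.59, and of 8 dermal fibroblast markers 1 rose and 3 fell with a median of -0.739. Of 12 adipocyte markers 0 rose and 8 fell (median -2.452), and of 8 immune cell markers 0 rose and 6 fell (median -3.208). Of 8 smooth muscle markers 2 rose and 0 fell (median -0.052). Within the groups r with *Foxo1* was 0.715 for the melanocyte and 0.713 for the fibroblast genes, and it was -0.021 for *Fbxo32*. The part of the melanocytes in the rise of *Foxo1* was not tested.

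The Y-linked transcripts were present in all WT+ZnO NPs and in no WT library, so the treatment cannot be told apart from this difference, which together with *Xist* has the form of male against female mice, within these groups. With the Y-linked level as a covariate, which draws on the other groups, the log2 fold change was 0.694 for *Fbxo32* (adjusted p = 0.112) and 0.219 for *Foxo1* (adjusted p = 0.45). *Trim63* differed by 0.004 ± 0.461 between WT+ZnO NPs and WT (adjusted p = 0.996), and the sign of this value changed with the processing.

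In KO skin, ZnO NPs went with a rise of *Trim63*. It was the 1 of 10 regulators called, against 14.7% of all genes (6.57% higher and 8.09% lower). *Trim63* rose by 2.25 ± 0.48 on the log2 scale, or 4.77-fold (adjusted p = 0.0162 by edgeR), and was higher in each KO+ZnO NPs library than in any KO library. Of the 10 regulators, 5 had an unadjusted p below 0.05, against 32.6% of all genes, and 5 had groups without overlap, against 34.7%. The median log2 fold change of the 10 genes was 0.596, against 0.007 over all genes.

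*Klf15* was 26.9, 15.3 and 20.3 CPM in KO and 32.9, 28.1 and 37.8 CPM in KO+ZnO NPs libraries. The groups did not overlap, the log2 fold change was 0.66 ± 0.22, and the test was missed (adjusted p = 0.0642). *Fbxo32* was 61.3, 55.2 and 60.1 CPM in KO and 80.8, 77.6 and 96.1 CPM in KO+ZnO NPs libraries, again without overlap, with a log2 fold change of 0.53 ± 0.19 (adjusted p = 0.0807). *Foxo1* was 55.3, 41.1 and 48.0 CPM in KO and 71.8, 61.0 and 59.1 CPM in KO+ZnO NPs libraries, with no overlap and a log2 fold change of 0.41 ± 0.15 (adjusted p = 0.0896). *Fbxo30* lay the other way, at 30.1, 18.4 and 26.6 CPM in KO+ZnO NPs libraries, all below the KO libraries, with a log2 fold change of -0.52 ± 0.22 (adjusted p = 0.131).

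The other MuRF genes, *Trim55* and *Trim54*, overlapped between these groups. *Trim54*, which encodes MuRF3, was 17.1, 4.98 and 8.32 CPM in KO and 7.59, 26.1 and 36.6 CPM in KO+ZnO NPs libraries (log2 fold change 1.21 ± 0.59, adjusted p = 0.182). *Trim55* was 0.698, 3.98 and 9.93 CPM in KO+ZnO NPs libraries (log2 fold change 1.27 ± 0.73, adjusted p = 0.253). In both genes replicate 1 of KO+ZnO NPs was low and replicate 3 was high, unlike *Trim63*, where replicate 2 was high. *Mstn*, the myostatin gene and a brake on muscle growth, was 9.74, 3.66 and 2.42 CPM in KO and 3.23, 8.16 and 29.6 CPM in KO+ZnO NPs libraries, and had the largest standard error of the 10 genes in this comparison (1.37 ± 1.10, adjusted p = 0.414).

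The call of *Trim63* rested on few libraries. Without KO replicate 2 its log2 fold change was 2.08 (adjusted p = 0.0704) and without KO replicate 3 it was 2.03 (adjusted p = 0.0607). Without KO+ZnO NPs replicate 2, the library with the highest level, it was 1.58 and still called (adjusted p = 0.0396). With edgeR on the KO and KO+ZnO NPs libraries alone the adjusted p was 0.0665, and DESeq2 gave 5.16e-05 on all 12 libraries and 0.000403 on these groups alone. With the muscle level as a covariate of the edgeR fit the log2 fold change was 1.545 (adjusted p = 0.232). With the ribosomal protein level, chosen after the values were seen, it was 0.569 (adjusted p = 0.613).

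**Figure D2:**
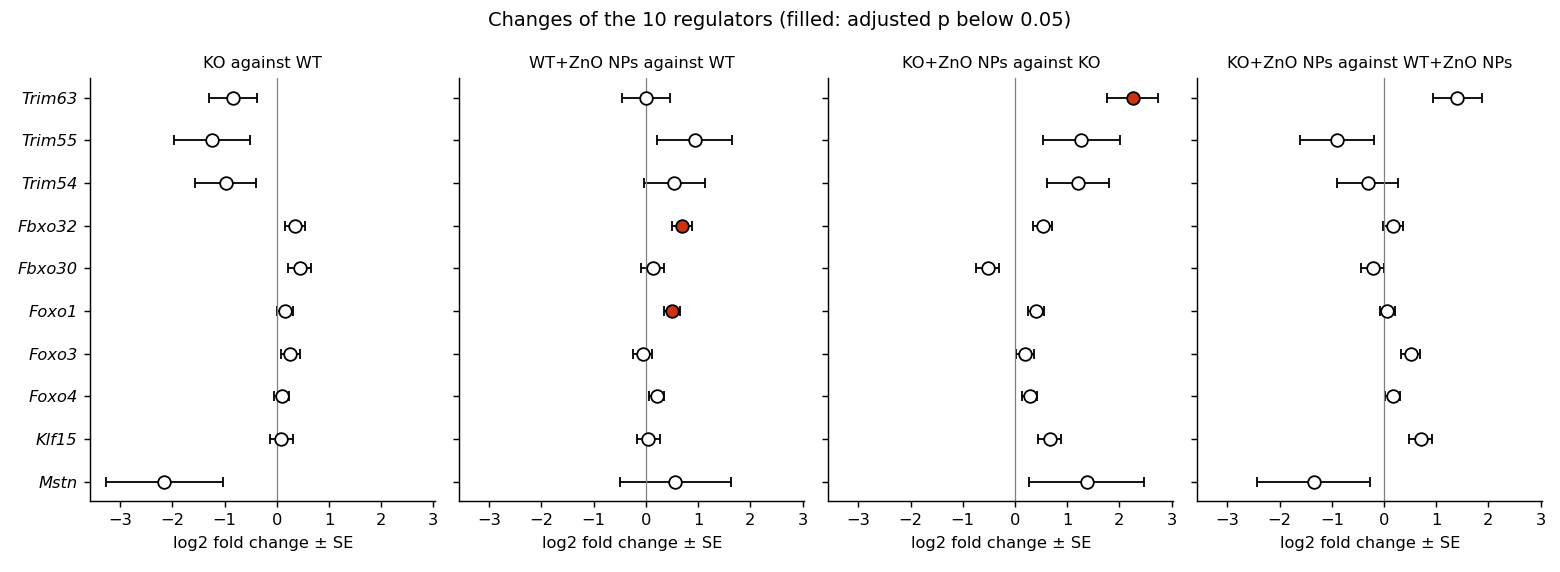
Log2 fold change (horizontal axis) of each regulator (rows) in the 4 comparisons, with bars of 1 SE on each side and filled points where the adjusted p was below 0.05. Filled points are *Fbxo32* and *Foxo1* in WT+ZnO NPs against WT and *Trim63* in KO+ZnO NPs against KO, and the bars are widest for *Mstn*.

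The comparison of KO+ZnO NPs with WT+ZnO NPs asks whether the genotypes differed under nanoparticles. The Y-linked level was high in all WT+ZnO NPs libraries but only in replicate 1 of KO+ZnO NPs, so the groups also differed in this. By edgeR, 0 of the 10 regulators were called, against 3.28% of all genes (2.13% higher and 1.16% lower), and 3 had an unadjusted p below 0.05, against 24.8% of all genes. These were *Trim63* (log2 fold change 1.41 ± 0.47, adjusted p = 0.101), *Klf15* (0.70 ± 0.22, adjusted p = 0.0892) and *Foxo3* (0.51 ± 0.18, adjusted p = 0.118). DESeq2 on all 12 libraries called 2 of them, *Trim63* (adjusted p = 0.03) and *Klf15* (adjusted p = 0.0406).

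*Trim63* and *Klf15* were the 2 of 10 genes whose libraries did not overlap, against 23.7% of all genes. *Klf15* was 22.2, 21.9 and 16.7 CPM in the WT+ZnO NPs libraries, within the range of the untreated groups, so that its 3 highest libraries of all 12 were those of KO+ZnO NPs. Without KO+ZnO NPs replicate 2 the difference in *Trim63* was 0.70 (adjusted p = 0.317). *Foxo3* was 67.4, 76.9 and 63.6 CPM in WT+ZnO NPs and 119, 102 and 75.5 CPM in KO+ZnO NPs libraries, which overlapped.

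The interaction of genotype and ZnO NPs tests whether the change under nanoparticles differed between KO and WT. Its WT part is the comparison in which all treated and no untreated libraries held Y-linked transcripts, so the interaction shares that limit. For *Trim63* the difference of the log2 fold changes, KO minus WT, was 2.25 ± 0.66 (unadjusted p = 0.006, adjusted p = 0.0587 by edgeR), so a different response of the genotypes was not shown at the threshold. None of the 10 regulators passed it, against 8.68% of all genes (5.08% higher and 3.59% lower), and 1, *Trim63*, had an unadjusted p below 0.05, against 27.4% of all genes. DESeq2 called *Trim63* (adjusted p = 0.00732). A test of any difference among the 4 groups called 4 of the 10 genes, against 47.4% of all genes. They were *Trim63* (adjusted p = 0.0118), *Fbxo32* (0.0136), *Foxo1* (0.0264) and *Klf15* (0.0337).

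The amount of skeletal muscle RNA differed between the pieces of skin. The summed level of the 30 skeletal muscle genes was 9404, 9392 and 11067 CPM in WT, 9043, 2737 and 4812 CPM in KO, 38155, 10499 and 18143 CPM in WT+ZnO NPs and 5205, 21442 and 28818 CPM in KO+ZnO NPs libraries. Of the 28 that were tested, 4 rose and 0 fell in KO+ZnO NPs against KO, with a median log2 fold change of 1.72, where 6.57% of all genes rose. For WT+ZnO NPs against WT, 3 rose and 0 fell, with a median of 1.13, a share below the 20.8% of all genes that rose. In KO against WT, 0 rose and 2 fell, with a median of -0.98, and none was called in KO+ZnO NPs against WT+ZnO NPs, with a median of -0.42. In tissue of mixed cells, more muscle in a piece and more RNA of these genes per muscle cell cannot be told apart.

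Within the groups, some of the regulators followed the muscle genes closely. Over the deviations of 12 libraries from their group means, which share depth and scaling, Pearson's r with the mean log2 CPM of the muscle genes was 0.957 for *Trim54*, 0.942 for *Foxo4*, 0.906 for *Trim55* and 0.757 for *Mstn*. It was 0.52 for *Trim63* (0.322 without KO+ZnO NPs replicate 1 and 0.707 without replicate 3), 0.472 for *Klf15* and 0.469 for *Fbxo32*, and it was -0.188 for *Foxo1*, -0.225 for *Fbxo30* and -0.40 for *Foxo3*. With the smooth muscle genes r was 0.971 for *Foxo4*, 0.926 for *Trim54*, 0.868 for *Trim55*, 0.671 for *Fbxo32*, 0.669 for *Mstn* and 0.586 for *Trim63*, and *Foxo3* was nearest to the keratinocyte genes (r = 0.823). *Trim54* and *Trim55* followed each other (r = 0.898), and *Trim63* followed *Trim54* with an r of 0.633 and *Trim55* with an r of 0.378.

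**Figure D3:**
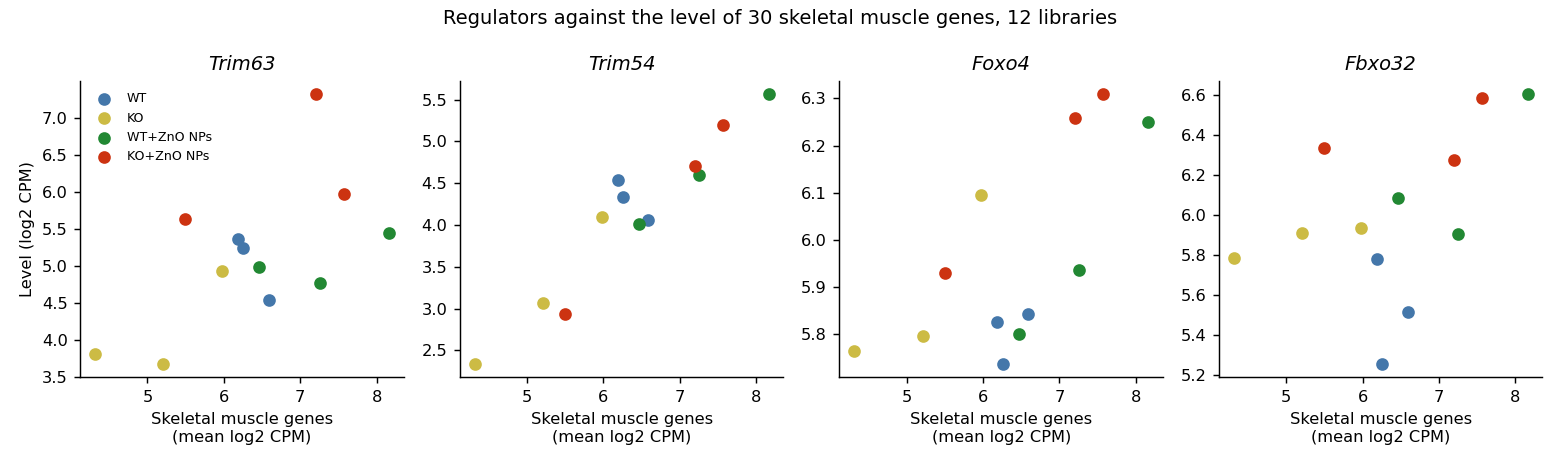
Level of 4 regulators (vertical axes, log2 CPM, 1 scale per gene) against the mean log2 CPM of 30 skeletal muscle genes (horizontal axes), with 1 point per library, coloured by group. *Trim54* and *Foxo4* climb with the muscle genes (r within groups 0.957 and 0.942), while the KO+ZnO NPs points of *Trim63* lie above libraries of like muscle level.

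*Trim63* was therefore also read relative to muscle, as its log2 CPM minus the mean log2 CPM of the muscle genes. This was -0.827, -1.01 and -2.05 in WT, -1.05, -0.511 and -1.53 in KO, -2.72, -1.49 and -2.48 in WT+ZnO NPs and 0.137, 0.116 and -1.60 in KO+ZnO NPs libraries. Replicates 1 and 2 of KO+ZnO NPs were the 2 highest of the 12 libraries and replicate 3 lay among the others, so that all groups overlapped. The difference was 0.583 between KO+ZnO NPs and KO (two-sided exact permutation test, p = 0.4) and 1.78 between KO+ZnO NPs and WT+ZnO NPs (exact p = 0.2). It was -0.93 between WT+ZnO NPs and WT (exact p = 0.2) and 0.266 between KO and WT (exact p = 0.7). Adjusted over the 4 comparisons, the lowest of these p-values is 0.4, and 3 against 3 mice cannot give a p below 0.1. The difference between KO+ZnO NPs and KO was 0.186 with *Ckm* alone as the reference and 0.29 to 1.16 with a library left out, highest without KO+ZnO NPs replicate 3.

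With the muscle level as a covariate of the edgeR fit, the log2 fold change of *Trim63* in KO+ZnO NPs against KO was 1.55 (adjusted p = 0.232). In that fit 0 of all 18822 genes were called in this comparison, where 2993 had an unadjusted p below 0.05. *Trim55*, *Trim54*, *Foxo4* and *Mstn* changed sign in it. Of the 30 muscle markers, at most 2 were at 0 in a library (*Tnnc2* and *Myh7*). Between 3 and 6 were below 1 CPM in each library, most in KO replicate 2, and there the prior count weighs on their log2 levels.

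Markers of other cell types also differed between the libraries. The summed level of the melanocyte genes was 56.9 to 73.9 CPM in WT, 83.3 to 253 CPM in KO, 465 to 1409 CPM in WT+ZnO NPs and 329 to 525 CPM in KO+ZnO NPs libraries, highest in the WT+ZnO NPs group, where *Trim63* was 27.3 to 43.4 CPM. The adipocyte genes summed to 7585 to 10863 CPM in WT, 3597 to 6869 CPM in KO, 1462 to 2973 CPM in WT+ZnO NPs and 1360 to 8380 CPM in KO+ZnO NPs libraries, and r with *Trim63* within the groups was -0.661. This rested on KO+ZnO NPs replicate 2, with 1360 CPM of the adipocyte genes and 159 CPM of *Trim63*, and was -0.024 without it. With the adipocyte level as a covariate the log2 fold change of *Trim63* in KO+ZnO NPs against KO was 1.71 (adjusted p = 0.027), the difference from WT+ZnO NPs was 1.43 (adjusted p = 0.0451) and the interaction was 2.42 (adjusted p = 0.0227).

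The genes most like *Trim63* over the 12 libraries were not muscle genes. Among the 12840 genes whose mean level reached 5 CPM, the highest Pearson's r of log2 CPM was with *Pfdn5*, a prefoldin subunit (r = 0.964), *Emc4*, of the membrane protein complex of the endoplasmic reticulum (0.962), the ribosomal protein genes *Rpl41* (0.956) and *Rpl34* (0.948), and *Psmb1*, a proteasome subunit (0.948). Spearman's rho lay between 0.86 and 0.944 for these 5 genes, r within the groups between 0.845 and 0.93, and r without the 2 libraries farthest from the median of *Trim63* between 0.861 and 0.932. Of the 50 genes most like it, 11 were among the 77 ribosomal protein genes searched and 0 among the 25 skeletal muscle genes searched. The closest muscle gene, *Acta1*, named after its rank was seen, was at rank 782 (r = 0.688). The median r was 0.594 over the muscle genes and 0.803 over the ribosomal protein genes, against 0.026 over all genes searched. The 50 genes were short, with a median exon length of 1872 bases against 4439 over all genes searched. These correlations share the libraries, their depth and their scaling, and are a description.

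The ribosomal protein genes were also highest in KO+ZnO NPs libraries. The summed level of 78 of them was 45111 to 52991 CPM in the untreated libraries and 53013 to 60914 CPM in WT+ZnO NPs libraries. It was 66279, 98375 and 63025 CPM in KO+ZnO NPs libraries. The highest value was that of replicate 2, which also held the highest level of *Trim63* and the fewest genes at 1 CPM or more (15269, against 15295 to 15953 in the others). In KO+ZnO NPs against KO, 38 of the 78 genes rose, against 6.57% of all genes, and 0 fell, with a median log2 fold change of 0.649. In WT+ZnO NPs against WT, where *Trim63* differed by 0.004, 9 rose, below the 20.8% of all genes, and 1 fell (median 0.227), and between the treated genotypes, where it differed by 1.41, 0 of 78 were called (median 0.397). With the ribosomal protein level as a covariate, an alternative chosen after the values were seen, the log2 fold change of *Trim63* in KO+ZnO NPs against KO was 0.569 (adjusted p = 0.613), and 0 of 18822 genes were called there, with 3362 at an unadjusted p below 0.05. In the same fit the difference of *Trim63* between the treated genotypes was 0.295 (adjusted p = 0.748) and the interaction was 1.05 (adjusted p = 0.263).

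**Figure D4:**
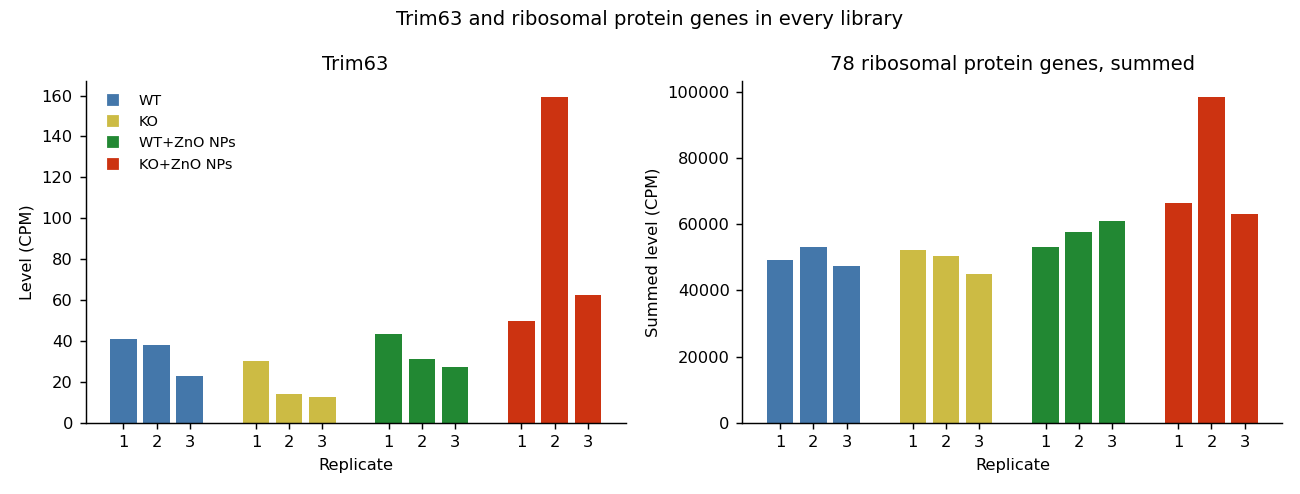
Level of *Trim63* (left, CPM) and summed level of 78 ribosomal protein genes (right, CPM) in each of the 12 libraries, with bars starting at 0 and coloured by group. KO+ZnO NPs replicate 2 is the highest bar in both panels, at 159 and 98375 CPM, and all 3 KO+ZnO NPs libraries are above the others in both.

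The genes nearest to *Mstn* were *Fhl3* (r = 0.935), *Tmod1* (0.912), *Rilp* (0.894), *Tmem233* (0.891) and *Stradb* (0.884). Those nearest to *Fbxo32* were *Itgb8* (0.949), *Trim7* (0.92), *Arhgef16* (0.92), *Bcl6* (0.919) and *Gpbp1l1* (0.912). Those nearest to *Klf15* were *Cib2* (0.89), *Bckdha* (0.859), *Cbr4* (0.845), *Tle1* (0.838) and *Gstk1* (0.834). *Bcl6*, a repressor that is itself a FoxO target, was thus among the nearest to *Fbxo32*, and *Bckdha*, an enzyme of branched-chain amino acid breakdown, among the nearest to *Klf15*.

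The pathway that feeds these regulators was read from lists of its other genes, against the share of all genes called given above. Each call in KO+ZnO NPs against KO named from these lists, *Pdk4*, *Sesn1*, *Fkbp5*, *Ddit4*, *Igf1* and *Tnfsf12* among them, was lost with the muscle or the ribosomal protein covariate, where 0 of 18822 genes were called. Between the treated genotypes 0 genes were called with edgeR on those groups alone and 1 with the Y-linked covariate, so nearly all calls of that comparison were lost too. The calls in WT skin and in the interaction rest on WT and WT+ZnO NPs libraries, which also differed in Y-linked transcripts. Of 26 FoxO targets, 7 rose and 11 fell in WT+ZnO NPs against WT, with a median log2 fold change of -0.196, while 3 rose and 1 fell in KO+ZnO NPs against KO, with a median of 0.124. In KO+ZnO NPs against WT+ZnO NPs, 6 rose and 0 fell, and 5 had a higher change in KO in the interaction. *Pdk4*, a kinase that shuts down pyruvate oxidation, fell by 1.495 in WT skin (adjusted p = 0.00271) and rose by 2.30 in KO skin under ZnO NPs (adjusted p = 0.00495), with an interaction of 3.79 ± 0.43 (adjusted p = 0.00186). *Sesn1*, a stress-induced inhibitor of mTOR, fell by 0.745 in WT skin (adjusted p = 0.00486) and rose by 0.792 in KO skin (adjusted p = 0.0152). The FoxO targets called in WT skin lay in both directions.

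Of the pathway lists, the glucocorticoid branch had the most rises in KO skin. Of its 18 tested genes, 5 rose and 0 fell in KO+ZnO NPs against KO (median 0.742), 4 rose and 4 fell in WT+ZnO NPs against WT, 3 rose and 0 fell between the treated genotypes, and none was called in KO against WT. *Fkbp5*, a co-chaperone and classic target of the glucocorticoid receptor, rose by 1.32 ± 0.28 in KO skin (adjusted p = 0.0167) and was 2.08 higher than in WT+ZnO NPs (adjusted p = 0.0205), with an interaction of 1.79 ± 0.40 (adjusted p = 0.0256). *Ddit4*, an mTOR inhibitor induced by glucocorticoids and stress, rose by 1.60 ± 0.32 in KO skin (adjusted p = 0.0135). *Mt1*, a metallothionein, is 1 of the 5 genes that rose in KO skin but also responds to zinc. It rose in both genotypes, by 1.68 in WT (adjusted p = 0.0155) and 2.42 in KO (adjusted p = 0.0134). The receptor gene *Nr3c1* fell in WT skin by 0.919 (adjusted p = 0.00432).

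Upstream of the FoxO factors, the growth factor gene *Igf1* fell under ZnO NPs in both genotypes, by 1.78 in WT (adjusted p = 0.000709) and by 1.17 in KO (adjusted p = 0.0222). Of the 20 genes of this list, 3 rose and 6 fell in WT+ZnO NPs against WT and 0 rose and 2 fell in KO+ZnO NPs against KO. Of 15 NF-kB and TWEAK genes, 0 rose in either comparison, and 5 fell in WT and 4 in KO skin, among them *Tnfsf12*, the TWEAK gene (by 1.58 in WT, adjusted p = 0.000257, and by 0.935 in KO, adjusted p = 0.018). The 8 immune cell markers fell with them, 6 in WT and 8 in KO skin, and summed to 3176 to 3814 CPM in WT but 390.3 to 794 CPM in WT+ZnO NPs libraries. Their part in the fall of these genes was not tested.

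The myostatin and activin branch held 24 tested genes, of which 10 rose and 0 fell in WT+ZnO NPs against WT and 5 rose and 0 fell in KO against WT, while 1 rose and 2 fell in KO+ZnO NPs against KO. In the interaction 2 had a lower change in KO and 0 a higher one. *Inhba*, the activin A subunit, was 2.33 ± 0.32 higher in KO than in WT (adjusted p = 0.00264), and *Smad7*, an inhibitor of this signalling, rose in WT skin by 1.40 ± 0.22 (adjusted p = 0.00068). *Fst*, the activin and myostatin antagonist follistatin, rose in both genotypes, by 0.679 in WT (adjusted p = 0.0183) and 0.944 in KO (adjusted p = 0.0153). *Mstn* itself was not called in any comparison.

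Of 13 other atrophy ligases, *Cblb* was called higher in KO against WT (0.556 ± 0.149, adjusted p = 0.0457), *Nedd4* was called lower in WT+ZnO NPs against WT (adjusted p = 0.021), and 0 were called in KO+ZnO NPs against KO, where the median log2 fold change was -0.023. Of 19 substrates and partners of the MuRF ligases, 1 rose in KO+ZnO NPs against KO, the myosin light chain gene *Myl1* (2.54 ± 0.70, adjusted p = 0.0365), which is also in the muscle list. In WT+ZnO NPs against WT, 5 of these 19 rose and 2 fell, among them *Tnni3*, a troponin I gene, which rose by 1.97 ± 0.41 (adjusted p = 0.00324), while *Sqstm1*, an autophagy adaptor, fell by 0.685 (adjusted p = 0.00362). Of 14 tested genes of denervation and satellite cells, *Runx1* and *Ncam1* were higher in KO than in WT (by 1.57, adjusted p = 0.00158, and by 1.67, adjusted p = 0.0124), and *Hdac4* was the 1 called in KO+ZnO NPs against KO (0.412, adjusted p = 0.044). In WT+ZnO NPs against WT, 4 of the 14 rose and 0 fell: *Runx1* by 1.23, *Ncam1* by 1.96, *Hdac4* by 0.557 and *Chrnd*, a subunit of the acetylcholine receptor, by 3.42 (adjusted p of 0.000733 to 0.0152). *Runx1* and *Ncam1* are also expressed outside muscle.

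**Figure D5:**
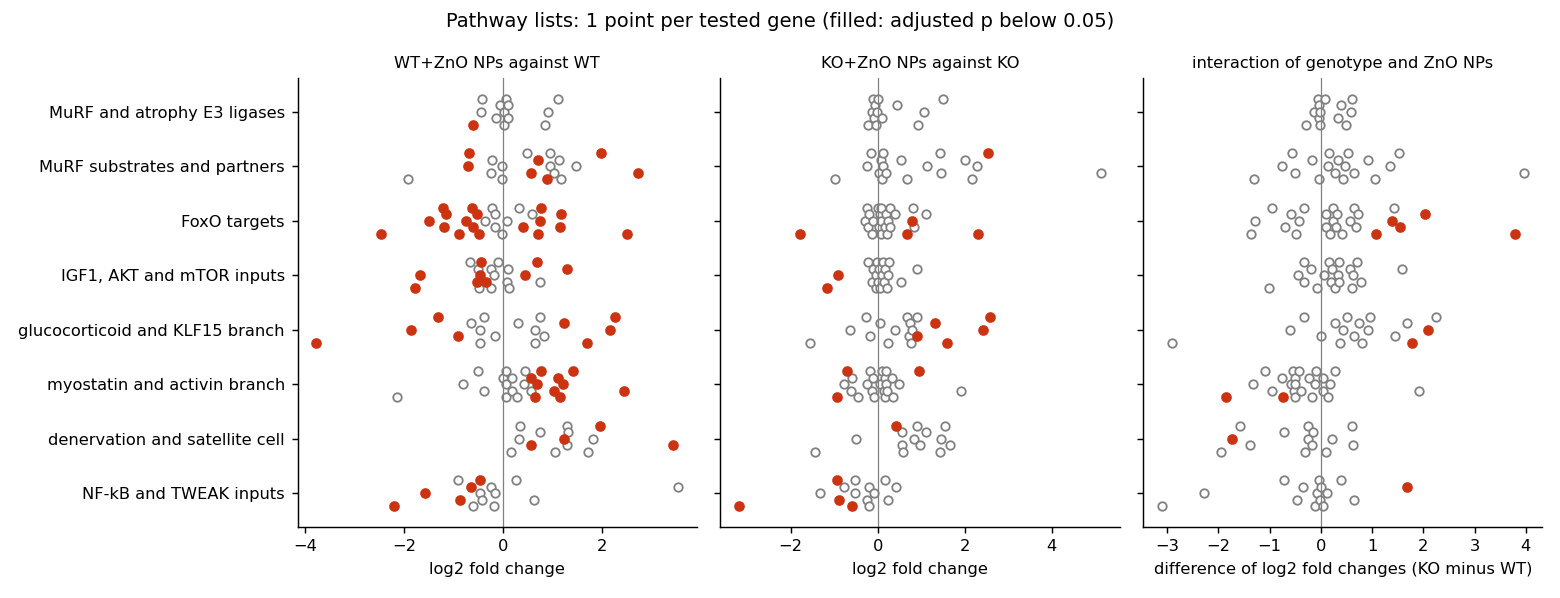
Log2 fold change of each tested gene (points) of 8 pathway lists (rows) under ZnO NPs in WT and in KO skin, and the difference between the genotypes (KO minus WT, right), with filled points where the adjusted p was below 0.05. In KO skin the filled points of the glucocorticoid list are all to the right (5 of 18 genes, *Mt1* among them) and those of the NF-kB list all to the left (4 of 15).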

How the data were processed

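Skin RNA of 12 mice in 4 groups of 3 was measured by RNA-seq, and the labels gave each library its group and replicate number. The deposited values are raw read counts of each gene in each library. The methods of the paper say that the authors removed low-quality paired-end reads, aligned the rest with STAR and counted them with HTSeq, whereas the submitters' processing notes name HISAT2 2.0.5 and mm10. Which annotation was used, and whether strand was, is not given in the sources used here. Of the 52636 genes, 52489 were named from release 21 of GENCODE.

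Tests used the quasi-likelihood test of edgeR 4.0.16 (R 4.3.3) on all 12 libraries, with TMM factors, the edgeR filter on low counts (18822 genes kept) and Benjamini-Hochberg adjustment over these genes. Calls needed an adjusted p below 0.05. Standard errors were worked back from the F statistic and are approximate. Log2 CPM used a prior count of 2. The relation of *Trim63* to muscle genes was tested with exact permutation over mice. The alternatives tried were DESeq2 1.42.0 (on all libraries or on the groups compared), edgeR on the groups compared, scaling by RLE factors or by library size alone, no filter, a minimum of 10 counts in every library, a replicate block, muscle, adipocyte and Y-linked levels as covariates, and leaving out each library. For *Trim63* relative to muscle they were Ckm alone or the summed CPM as the reference and a prior count of 0.5. A ribosomal protein covariate was added after the values were seen. The regulators, lists and tests were chosen with earlier results of these data known.

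The genes named are the 10 regulators, up to 4 genes of each pathway list with the smallest adjusted p in a comparison, and the 5 genes most like *Trim63*, *Fbxo32*, *Klf15* and *Mstn*, and 1 gene of a pathway list is not reported here. No replicate pair agreed within sampling noise (chi-square over its degrees of freedom 40.75 to 178), a check for duplicated libraries only. Counting error is small at this depth, and the spread between 3 mice limits the precision. The edgeR test was also run on simulated data with known changes. All genes were drawn there at a single dispersion of 0.109, unlike the differing spread of the regulators, so it bears on none of the calls here.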

Additional observations from a re-analysis of the deposited data

How the results depend on the processing

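Of 1180 values of single regulators under the alternatives, 1086 kept their direction and their side of the threshold, 13 lost the call, 18 gained it and 63 changed sign, and the cause was not tested. None of the values that changed sign had been called. *Trim63* in KO+ZnO NPs against KO kept its direction in all 24 alternatives (log2 fold change 0.569 to 2.77, adjusted p 5.16e-05 to 0.613) and was called in 19 of them. Its interaction was called in 5 of 22 alternatives (1.05 to 2.77).

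The number of regulators called changed as follows. In KO against WT it was 2 with DESeq2 on the groups compared (*Trim55*, *Fbxo30*) and 1 with edgeR on them (*Fbxo30*). In WT+ZnO NPs against WT it was 1 without the filter (*Fbxo32*), 1 with the muscle covariate (*Foxo1*), 0 with the Y-linked covariate, and 0 to 2 with libraries left out, at 0 without WT replicate 2. In KO+ZnO NPs against KO it was 2 with DESeq2 on all 12 libraries (*Trim63*, *Klf15*) or on the groups compared (*Trim63*, *Fbxo32*), 2 with the adipocyte covariate (*Trim63*, *Klf15*), 0 with edgeR on the groups compared and with the muscle or ribosomal protein covariate, and 0 to 2 with libraries left out, at 0 without KO replicate 2 or 3. In KO+ZnO NPs against WT+ZnO NPs it was 2 with DESeq2 on all 12 libraries (*Trim63*, *Klf15*), 1 with the adipocyte covariate (*Trim63*) and 0 to 1 with libraries left out (*Foxo3* without KO+ZnO NPs replicate 3). In the interaction it was 1, *Trim63*, with DESeq2, with a minimum of 10 counts and with the adipocyte covariate, and 0 to 1 with libraries left out (*Trim63* without replicate 1 of KO or of KO+ZnO NPs). For any difference among the 4 groups it was 5 with DESeq2, 3 with library size only or the Y-linked covariate, 2 without the filter, 1 with the ribosomal protein covariate (*Fbxo32*) and 2 to 5 with libraries left out, at 2 without WT replicate 1, WT replicate 2 or KO replicate 3.

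Changes of sign on the log2 scale were these. *Trim63* in WT+ZnO NPs against WT was -0.002 with RLE factors, -0.011 with DESeq2 on all 12 libraries, -0.026 with it on the groups compared, -0.038 without the filter, -0.456, -0.704, -0.176 and -0.479 with the muscle, adipocyte, Y-linked and ribosomal protein covariates, and -0.216 to 0.155 with libraries left out. With library size only, *Foxo3* was 0.045 in WT+ZnO NPs against WT, *Foxo1* -0.083 between the treated genotypes and *Foxo4* -0.075 in the interaction. With the muscle covariate, values in WT+ZnO NPs against WT were -0.246 for *Trim55*, -0.581 for *Trim54*, 0.043 for *Foxo3*, -0.006 for *Foxo4*, -0.096 for *Klf15* and -1.31 for *Mstn*. In KO+ZnO NPs against KO they were -1.04 for *Trim55*, -0.467 for *Trim54*, -0.054 for *Foxo4* and -1.37 for *Mstn*. *Trim55* was 0.064 in KO against WT and -0.797 in the interaction, *Trim54* 0.099 between the treated genotypes, and *Foxo4* -0.049 and *Mstn* -0.056 in the interaction. With the Y-linked covariate, *Klf15* was -0.039 in KO against WT, *Fbxo30* -0.115 and *Klf15* -0.258 in WT+ZnO NPs against WT, and *Trim55* -0.718 and *Foxo1* 0.194 in the interaction. With the ribosomal protein covariate, *Fbxo30* was 0.125 in KO+ZnO NPs against KO and 0.156 between the treated genotypes, and *Fbxo32* 0.07 in the interaction.

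With libraries left out, *Foxo4* was -0.025 to 0.162 and *Klf15* -0.142 to 0.28 in KO against WT, and *Trim63* relative to muscle was -0.113 to 0.516 there. In WT+ZnO NPs against WT, *Foxo3* was -0.198 to 0.015, *Klf15* -0.049 to 0.184, *Fbxo30* -0.021 to 0.346 and *Mstn* -1.01 to 1.44. Between the treated genotypes, *Foxo1* was -0.019 to 0.189, *Mstn* -2.62 to 0.234 and *Trim54* -0.801 to 0.226. In the interaction, *Fbxo32* was -0.306 to 0.065, *Foxo1* -0.219 to 0.034, *Foxo4* -0.014 to 0.218, *Trim55* -0.746 to 0.872 and *Mstn* -0.474 to 2.39.

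Replicate numbers did not pair the mice: deviations of same-numbered libraries correlated between -0.343 and 0.429, above 0.1 in 4 of 18 pairs. With the replicate block, 0, 2, 1, 0, 0 and 4 regulators were called in the 6 tests, as without it, and *Trim63* in KO+ZnO NPs against KO was 2.27 (adjusted p = 0.0172).

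The number of all genes called also moved by more than 1.5 times. In KO against WT it was 1540, but 3029 and 4522 with DESeq2 on all 12 libraries and on the groups compared, 2794 with edgeR on the groups compared, 661 and 955 with the muscle and Y-linked covariates, and 377 to 2060 with a library left out, lowest without WT replicate 2. In WT+ZnO NPs against WT it was 8085, but 3982 with the Y-linked covariate. In KO+ZnO NPs against KO it was 2759, but 4290 with DESeq2 on all 12 libraries, 571 with edgeR on the groups compared, 0 with the muscle or ribosomal protein covariate (2993 and 3362 at an unadjusted p below 0.05), and 451 to 3195 with a library left out, lowest without KO replicate 2. Between the treated genotypes it was 618, but 2322 with DESeq2 on all 12 libraries, 0 with edgeR on the groups compared (3067 at an unadjusted p below 0.05), 284 without the filter, 213, 1650, 1 and 127 with the muscle, adipocyte, Y-linked and ribosomal protein covariates, and 1 to 1609 with a library left out, lowest without WT+ZnO NPs replicate 3. In the interaction it was 1633, but 3147 with DESeq2, 1086 without the filter, 140 and 1062 with the Y-linked and ribosomal protein covariates, and 461 to 1646 with a library left out, lowest without WT replicate 2. For any difference it was 8925, but 5374 and 5711 with the muscle and Y-linked covariates. For the interaction and for any difference no fit on the groups compared alone exists, since both use all 4 groups.

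*Trim63* relative to muscle, with *Ckm* alone as the reference, was 0.597 in KO against WT, -0.599 in WT+ZnO NPs against WT, 0.186 in KO+ZnO NPs against KO and 1.38 between the treated genotypes. With the summed CPM as the reference it was 0.101 in KO against WT. With a library left out it was -1.31 to -0.686 in WT+ZnO NPs against WT, 0.29 to 1.16 in KO+ZnO NPs against KO and 1.49 to 2.35 between the treated genotypes.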
